A study of Mus musculus with 8 samples.

Results

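The 10 radial glia and neural progenitor genes described here were *Sox1*, *Sox2*, *Sox3*, *Sox9*, *Nes*, *Vim*, *Slc1a3*, *Fabp7*, *Pax6* and *Msi1*, chosen by name from the platform annotation among 19938 genes with 1 gene symbol. Each of the 10 had exactly 1 probe set among the 35556 on the array. In RefSeq *Sox1*, *Sox2* and *Pax6* share their position with *Sox1ot*, *Sox2ot*, *Pax6os1* and *Elp4*, and whether their probe sets also read these transcripts was not tested. RNA was measured on 8 mouse whole-transcript arrays in 4 groups of 2 arrays each. E14.5 neurons and E13.5 neurons were GFP-positive cells sorted from the ventral midbrain of *Pitx3*GFP/+ embryos at these stages, on a mixed C57BL/6 and 129/Ola background, in which GFP stands at 1 allele of *Pitx3*, a transcription factor gene of mesodiencephalic dopaminergic (mdDA) neurons. The 2 dissected groups, named mdDA domain and lateral domain, came by laser microdissection from fixed and stained sections of E12.5 *BAT-gal* embryos on a mixed B6D2F1 background, each as a pool from 5 embryos. *BAT-gal* embryos carry b-galactosidase (b-GAL) under LEF1/TCF binding sites, a reporter of WNT/b-catenin signaling. The mdDA domain contained b-GAL and PITX3 protein, and the lateral domain, at the boundary of the alar and basal plates, contained neither. The 2 arrays of a group were technical replicates, so p-values measure only the spread between arrays and not that between embryos. Stage, strain and isolation differed together between sorted neurons and dissected domains and cannot be told apart.

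Radial glia are the elongated neural stem cells whose cell bodies line the ventricle of the embryonic brain, and in the ventral midbrain floor plate they give rise to mdDA neurons. They express SOX transcription factors that hold cells in the progenitor state, the intermediate filament proteins nestin and vimentin, and glial proteins such as the glutamate transporter GLAST (*Slc1a3*) and the lipid-binding protein BLBP (*Fabp7*). As progenitors leave the cell cycle and become neurons, most of these genes are turned down and neuronal genes are turned on.

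The labels of the groups were set against marker genes. Of 11 measured mdDA neuron genes, 9 were higher in the mdDA than the lateral domain, 7 were higher in sorted neurons than in the mdDA domain and 11 were higher in sorted neurons than in the lateral domain, with none lower. Of 8 lateral midbrain genes, all 8 were lower in the mdDA domain and in sorted neurons, each against the lateral domain. In sorted neurons 4 of these 8 were higher than in the mdDA domain, with the GABA synthesis gene *Gad2* furthest (log2 difference 2.53). The 2 arrays of a group correlated at 0.966 (E14.5 neurons), 0.975 (E13.5 neurons), 0.981 (mdDA domain) and 0.983 (lateral domain) over all probe sets. The median log2 level of an array was 4.39 in sorted neurons and 4.57 to 4.6 in the dissected domains.

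Most of the 10 genes had their highest level in the lateral domain, the mdDA domain came next and the sorted neurons were lowest. The group means of *Sox2*, *Sox9*, *Nes*, *Vim*, *Slc1a3*, *Fabp7*, *Pax6*, *Msi1* and *Sox3* were all highest in the lateral domain, and *Sox1* was the exception. With each array centred on its median, sorted neurons were no lower than the lateral domain for *Sox3* (log2 difference 0.06) and *Pax6* (0.01). All levels below are log2 values after robust multi-array averaging (RMA) and are compared only within a probe set.

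*Sox2*, which encodes the SOXB1 factor that maintains neural progenitors, had log2 levels of 5.83 and 6.04 in E14.5 neurons, 5.69 and 5.49 in E13.5 neurons, 6.63 and 6.91 in the mdDA domain and 8.25 and 8.08 in the lateral domain. *Sox9*, which encodes a SOXE factor of neural stem cells and glia, had log2 levels of 5.51 and 5.76 in E14.5 neurons, 5.41 and 5.05 in E13.5 neurons, 6.52 and 6.12 in the mdDA domain and 7.95 and 8.12 in the lateral domain. For both genes the 4 groups fell in the same order without any overlap, and the step between the 2 dissected domains was the widest.

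The intermediate filament genes separated the groups elsewhere. *Nes* (nestin) had log2 levels of 4.08 and 3.40 in E14.5 neurons, 4.01 and 4.47 in E13.5 neurons, 7.65 and 7.66 in the mdDA domain and 7.92 and 7.95 in the lateral domain. *Vim* (vimentin) had log2 levels of 9.07 and 8.85 in E14.5 neurons, 8.47 and 8.52 in E13.5 neurons, 9.81 and 9.71 in the mdDA domain and 10.26 and 10.32 in the lateral domain. The 2 domains were close together for *Nes*, while both sorted groups lay far below them and overlapped each other, with 3 of the 4 sorted arrays below their array median. *Vim* kept all 4 groups apart.

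The glial genes and *Msi1* showed overlap between the mdDA domain and E14.5 neurons. *Fabp7* had log2 levels of 9.84 and 9.50 in E14.5 neurons, 8.70 and 8.70 in E13.5 neurons, 9.63 and 9.87 in the mdDA domain and 10.48 and 10.56 in the lateral domain. *Slc1a3* had log2 levels of 5.72 and 5.21 in E14.5 neurons, 5.04 and 5.13 in E13.5 neurons, 5.74 and 5.46 in the mdDA domain and 6.00 and 6.10 in the lateral domain. *Msi1*, which encodes an RNA-binding protein of neural stem cells, had log2 levels of 8.45 and 7.92 in E14.5 neurons, 8.24 and 8.05 in E13.5 neurons, 8.24 and 8.17 in the mdDA domain and 9.01 and 8.94 in the lateral domain. For these 3 genes the lateral domain stood above all other arrays, and for *Msi1* the other 3 groups could not be separated.

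The remaining 3 genes varied little. *Sox1* and *Sox3* encode the other SOXB1 factors, and their group means spanned 0.13 and 0.21 on the log2 scale. *Sox1* had log2 levels from 5.0 to 5.49 over the 8 arrays, with every group overlapping its neighbour in the order of means, and *Sox3* from 5.49 to 5.85. *Pax6*, which encodes a paired-box factor of progenitors in the alar plate and other regions, had log2 levels of 4.56 and 4.46 in E14.5 neurons, 4.31 and 4.50 in E13.5 neurons, 4.46 and 4.46 in the mdDA domain and 4.66 and 4.65 in the lateral domain. These levels lay near the array medians, and on the deposited scale only the lateral domain stood clear of the others. As percentiles on their own array, the lateral levels (51.1 and 50.9) lay within the range of the sorted ones (48.6 to 52.8).

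**Figure D1:**
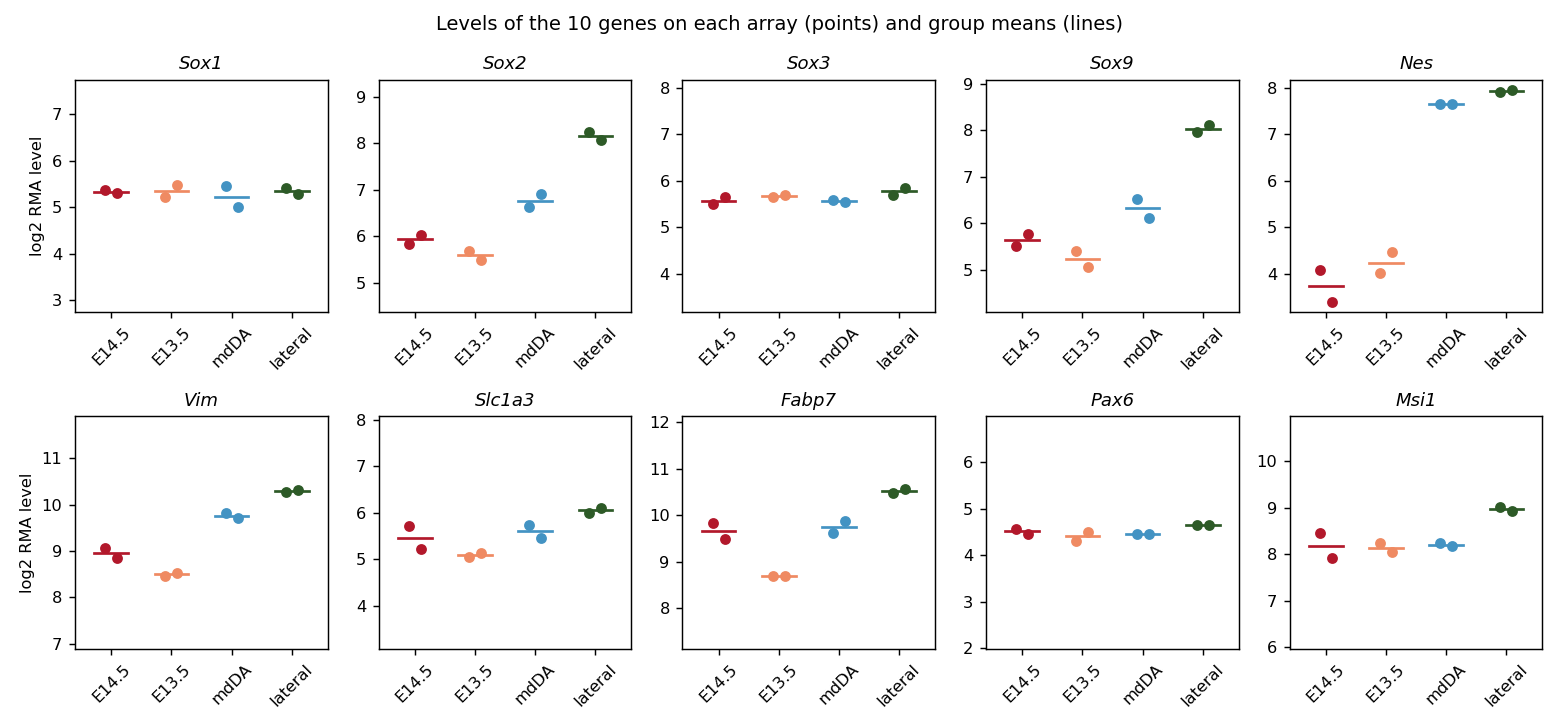
Log2 RMA levels (y axis, each panel spanning the same range) of the 10 genes on the 2 arrays of each group (points) with the group mean (line), for E14.5 and E13.5 sorted neurons, the mdDA domain and the lateral domain. *Nes* separated sorted from dissected samples (3.40 to 4.47 against 7.65 to 7.95). For 9 of the 10 genes, all but *Sox1*, both mdDA arrays lay below both lateral arrays, as in 23.3% of all probe sets.

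Sequences just before the transcription start are shown for 4 genes. They belong to the 5 genes called lower in sorted neurons than in the mdDA domain, the fifth being *Sox9*. The RefSeq promoter table (build GRCm38.p6) held 8 windows for 7 of the 10 genes, with 2 starts for *Pax6* and none used here for *Sox3*, *Sox9* and *Msi1*. The 250 bases before the start lie on the plus strand at chr3:34649745-34649994 (*Sox2*), chr3:87970843-87971092 (*Nes*), chr2:13574061-13574310 (*Vim*) and chr10:57784673-57784922 (*Fabp7*), and capitals mark ACAAAG (a SOX motif) and CCAAT or its reverse complement ATTGG (the NF-Y box).
Sox2: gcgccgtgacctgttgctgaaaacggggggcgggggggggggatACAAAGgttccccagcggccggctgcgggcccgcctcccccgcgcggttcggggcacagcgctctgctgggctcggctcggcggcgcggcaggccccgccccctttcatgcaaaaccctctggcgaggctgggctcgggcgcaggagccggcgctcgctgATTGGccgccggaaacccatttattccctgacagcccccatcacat
Nes: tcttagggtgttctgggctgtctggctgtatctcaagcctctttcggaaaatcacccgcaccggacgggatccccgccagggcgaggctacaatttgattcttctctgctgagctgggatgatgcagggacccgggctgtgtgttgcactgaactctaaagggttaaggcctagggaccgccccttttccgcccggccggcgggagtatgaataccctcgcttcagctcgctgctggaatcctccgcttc
Vim: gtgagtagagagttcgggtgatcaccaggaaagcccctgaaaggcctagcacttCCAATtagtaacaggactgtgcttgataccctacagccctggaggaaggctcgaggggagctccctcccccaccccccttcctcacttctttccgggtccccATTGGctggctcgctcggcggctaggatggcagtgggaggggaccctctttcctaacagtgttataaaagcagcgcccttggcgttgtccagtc
Fabp7: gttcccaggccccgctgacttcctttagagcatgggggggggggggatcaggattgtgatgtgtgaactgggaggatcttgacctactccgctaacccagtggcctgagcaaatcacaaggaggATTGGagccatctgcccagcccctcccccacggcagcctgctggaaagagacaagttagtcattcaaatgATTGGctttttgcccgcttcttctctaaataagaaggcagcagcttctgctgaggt
The SOX motif ACAAAG, searched on both strands, stood in 2 of the 8 windows, that of *Sox2*, beginning 206 bases before the start, and that of the second *Pax6* start, 154 bases before it. It stood in 16.5% of all 32851 windows. None of the 8 windows held GTGGGAA (RBPJ, the DNA-binding partner of NOTCH, in 5.42% of all windows), CTTTGA (a LEF1/TCF core, in 13.8%) or ATGCAAAT (the POU octamer, in 1.6%). The paper gives the LEF1/TCF site in a wider form, [A/T][A/T]CAAAG, which was not searched over the windows. In *Sox2* the marked ACAAAG follows a T, and the stretch TACAAAG also reads as this wider LEF1/TCF form. CCAAT, added after the sequences were seen, stood in 6 of the 8 windows and in 33.8% of all windows. In *Sox2* it began 46 bases before the start, in *Vim* 94 and 196 bases before it and in *Fabp7* 56 and 126 bases before it, and the *Nes* window held none of the 5 motifs. These matches are a description of letters in short windows, and which factor binds there was not tested.

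Between the 2 domains of E12.5 embryos, the question was how the WNT/b-catenin-responding mdDA domain differed from the lateral domain that does not respond. *Sox9* and *Sox2* were lower in the mdDA domain, and no gene of the 10 was higher. *Sox9* averaged 6.32 ± 0.288 in the mdDA domain against 8.03 ± 0.12 in the lateral domain (log2 level, SD, n = 2 arrays each), and the log2 difference was -1.71 with a standard error of 0.202 (paired limma test, adjusted p = 0.0642). *Sox2* averaged 6.77 ± 0.195 in the mdDA domain against 8.16 ± 0.115 in the lateral domain (log2 level, SD, n = 2 arrays each), and the log2 difference was -1.40 with a standard error of 0.18 (adjusted p = 0.072). Both lost the call in each of the 4 fits with 1 array left out, which were run without the replicate block. Such a fit leaves 1 array in a domain, and calls over all probe sets fell as well, so the loss is not particular to these 2 genes. The log2 difference in these fits was -1.92 to -1.51 for *Sox9* and -1.53 to -1.26 for *Sox2*. In bulk RNA, fewer progenitor cells in a sample and less RNA of a gene per cell cannot be told apart.

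The 2 genes called lower, at a false discovery rate below 10%, compare with 1.10% of all 35556 probe sets called lower, and the 0 called higher with 1.52% called higher. All 10 log2 differences were negative, and the 2 groups of arrays did not overlap for 9 genes, all but *Sox1*, where 23.3% of all probe sets were lower without overlap. The median log2 difference of the 10 genes was -0.49, against -0.013 over all probe sets. *Fabp7* and *Msi1* both had a log2 difference of -0.77 (adjusted p = 0.138 and 0.133), and *Vim* had -0.53 (adjusted p = 0.257). *Fabp7* and *Msi1* passed when the replicate block was left out (adjusted p = 0.0964 and 0.0669 from limma), and these 2 and *Vim* passed with trend and robust priors. *Slc1a3* (-0.45), *Nes* (-0.28, 95% confidence interval -0.68 to 0.11), *Sox3* (-0.21), *Pax6* (-0.20) and *Sox1* (-0.12) did not pass.

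The mean of both sorted groups was then compared with the mdDA domain, which sets isolated mdDA neurons against tissue that also holds progenitors. Of the 10 genes 5 were lower in sorted neurons and none was higher. *Nes* was 12.7-fold lower, with a log2 difference of -3.66 (adjusted p = 0.00109 from limma over 8 arrays), the largest of the 10. Most sorted levels of *Nes* lay below the array median, where without detection calls the size of a difference is uncertain. *Vim* had a log2 difference of -1.03 (adjusted p = 0.00585), *Sox2* -1.0 (0.0103), *Sox9* -0.89 (0.0277) and *Fabp7* -0.57 (0.0486). The sorted arrays lay below both mdDA arrays for the first 4 genes, and overlapped them for *Fabp7*.

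These 5 genes compare with 9.84% of all probe sets called lower and the 0 higher with 8.53% called higher, and the 4 without overlap with 22.9%. The median log2 difference of the 10 genes was -0.44, against -0.078 over all probe sets. With each array centred on its median the calls over all probe sets became 5580 higher and 1782 lower (3032 and 3500 as deposited) and the median over all probe sets 0.119, while *Nes*, *Vim*, *Sox2* and *Sox9* were still called lower. *Fabp7* was not called after centring (-0.37, adjusted p = 0.145), and *Sox9* was not called without mdDA replicate 1 (-0.68, adjusted p = 0.165). *Msi1* had a log2 difference of -0.04 (95% confidence interval -0.44 to 0.36), *Pax6* of -0.01 (-0.26 to 0.25), *Sox3* of 0.06 (-0.20 to 0.32), *Sox1* of 0.13 (-0.26 to 0.51) and *Slc1a3* of -0.32 (-0.73 to 0.09).

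Split by stage of the sorted neurons, *Fabp7* differed most. With E14.5 neurons alone its log2 difference from the mdDA domain was -0.08 (adjusted p = 0.799 from limma), and with E13.5 neurons alone it was -1.05 (adjusted p = 0.02). *Nes* had -3.91 with E14.5 neurons alone and -3.41 with E13.5 neurons alone. *Sox2* had -0.83 with E14.5 neurons and -1.18 with E13.5 neurons, and *Vim* -0.79 with E14.5 neurons and -1.26 with E13.5 neurons. *Nes*, *Vim*, *Sox2* and *Sox9* were called lower with either stage. The difference between the stages themselves did not pass for any of the 10 genes.

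Sorted neurons compared with the lateral domain had 7 of the 10 genes lower and none higher. *Nes* was 15.4-fold lower (log2 difference -3.95, adjusted p = 0.000196 from limma), and *Sox9* had -2.6, *Sox2* -2.40, *Vim* -1.56, *Fabp7* -1.34, *Msi1* -0.81 and *Slc1a3* -0.77. Of all probe sets 25.9% were called in either direction (4057 higher and 5141 lower), and 8 genes were lower without overlap, where the share of all probe sets was 26.2%. *Pax6* was among these 8, and its log2 difference was 0.01 after centring. The median log2 difference was -1.07, against -0.089 over all probe sets. Centring moved the calls over all probe sets to 6705 higher and 2732 lower. *Slc1a3* and *Msi1* lost the call without lateral replicate 1 or 2, and *Slc1a3* with E14.5 neurons alone (-0.59, adjusted p = 0.1 from limma). *Sox3* (-0.15), *Pax6* (-0.20) and *Sox1* (0.00) did not pass. These comparisons share arrays, so their values are not independent of each other.

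The mdDA domain lay at different places between sorted neurons and the lateral domain. On the log2 scale, with sorted neurons at 0% and the lateral domain at 100%, the mdDA level of *Nes* lay at 92.9%. Taken over single arrays of the sorted, mdDA and lateral groups, its place ranged between 91.3% and 94.3%, but 3 of the 4 sorted arrays had *Nes* below their array median, where the RMA level may be a floor. The place of *Vim* was 65.9% (50.7% to 74.8% over single arrays). *Sox2* lay at 41.8% (26.7% to 54.5%) and *Sox9* at 34.1% (15.1% to 50.8%). *Fabp7* lay at 42.4%, with single arrays between -32.9% and 66.1%, and *Slc1a3* at 41.6%, with single arrays between -89.9% and 72.6%. *Msi1* had no settled place, with 4.79% from the group means, -58.5% to 31.5% over single arrays, -26.4% with arrays centred on their medians and 25.8% with quantile normalization repeated. Apart from *Nes*, each gene's range overlapped with that of at least one other gene. These places are a description with no test.

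**Figure D2:**
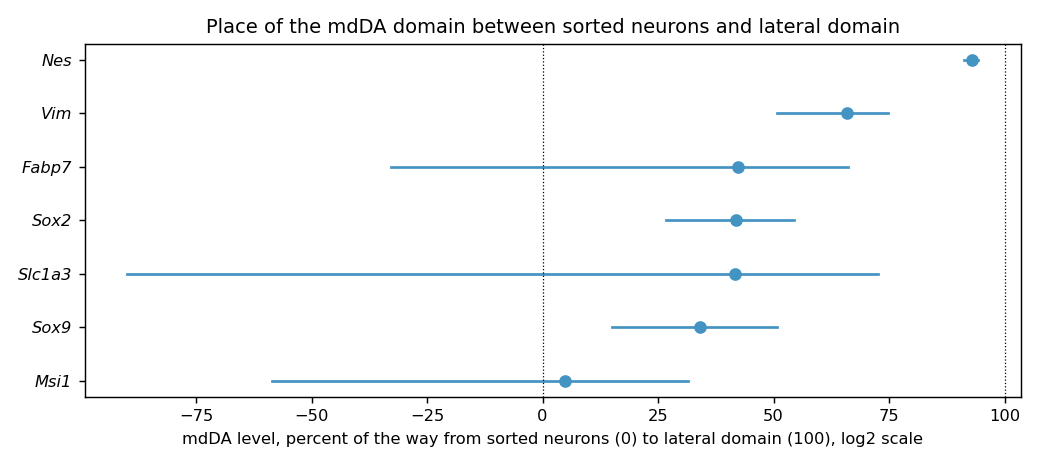
Place of the mdDA domain on the log2 scale, in percent of the way from the mean of sorted neurons (0) to the lateral domain (100), for the 7 genes called between sorted neurons and the lateral domain; points use group means and lines span single sorted, mdDA and lateral arrays. The line of *Nes* spanned 91.3% to 94.3% and that of *Msi1* -58.5% to 31.5%, on both sides of 0. For a line, 0 stands for a single sorted array.

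**Figure D3:**
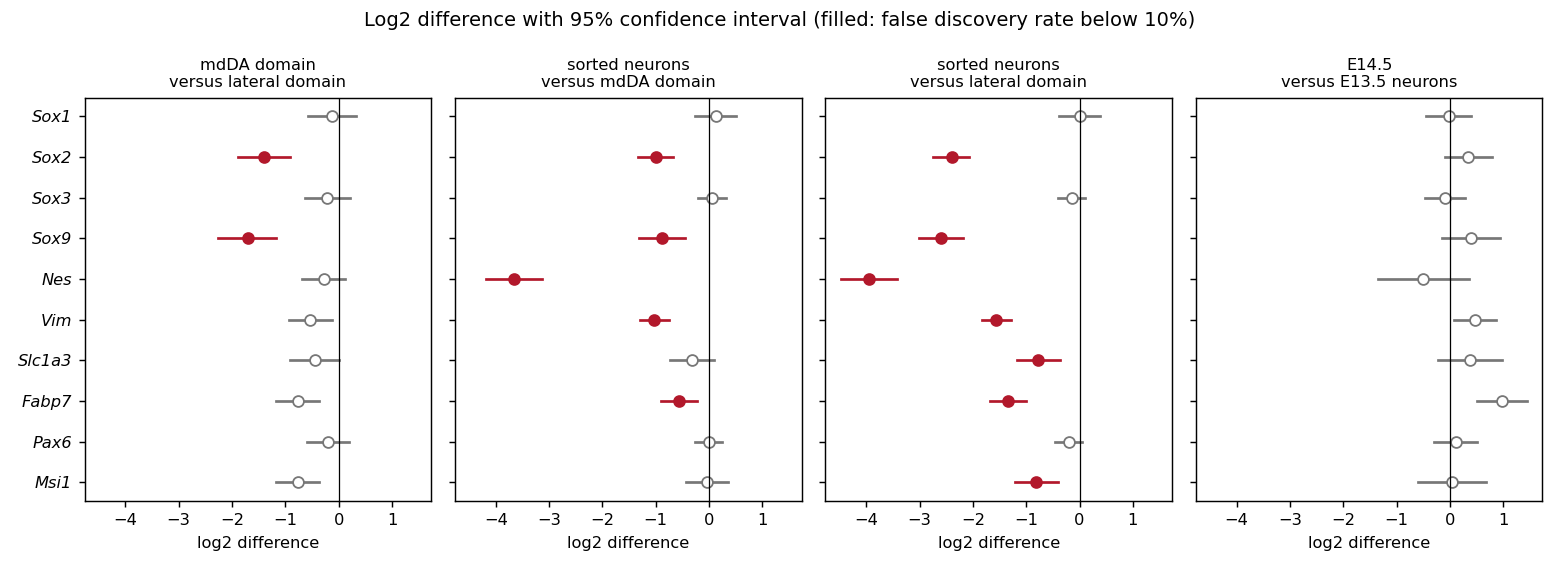
Log2 differences of the 10 genes in 4 comparisons with 95% confidence intervals from limma; filled points passed a false discovery rate of 10% over all probe sets. The number of filled points was 2, 5, 7 and 0 from left to right, and all lay below 0.

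Between E14.5 and E13.5 neurons no probe set was called by limma on the 4 sorted arrays (0 higher, 0.00% of 35556), and so none of the 10 genes. At an unadjusted p under 0.05 there were 2156 probe sets (6.06%), 2 of them among the 10 genes, and a fit over all 8 arrays called 9 probe sets higher and 11 lower, none of them among the 10. *Fabp7* had the largest log2 difference, 0.97 (95% confidence interval 0.51 to 1.44, adjusted p = 0.744 from limma), and *Vim* had 0.47 (0.07 to 0.87, adjusted p = 0.78). The E14.5 arrays lay above both E13.5 arrays for *Fabp7*, *Vim*, *Sox2*, *Sox9* and *Slc1a3*, 5 of the 10 genes, where 18.0% of all probe sets did so, and for no gene did they lie below. *Nes* had a log2 difference of -0.50 (95% confidence interval -1.35 to 0.35). Among markers of other cells, the microglial gene *C1qb* had a log2 difference of 1.43 (adjusted p = 0.833) and the pericyte gene *Rgs5* 0.92 (adjusted p = 0.754). The median log2 difference was smaller, 0.28 over 9 microglial genes and 0.14 over 12 endothelial and pericyte genes, and none was called. The endothelial gene *Kdr* went the other way (mean log2 level 3.66 in E14.5 and 4.22 in E13.5 neurons). The summed linear signal of 9 microglial genes was 254 to 292 in E14.5 neurons and 167 to 188 in E13.5 neurons. Of 8 genes of the lateral midbrain none was called, with a median log2 difference of -0.6, and their summed linear signal was 418 to 437 in E14.5 neurons and 510 to 541 in E13.5 neurons. The part of these cells in the values of *Fabp7* and *Vim* was not tested.

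Further genes of radial glia and progenitors, 22 in all and none among the 10, gave more detail. Between the domains 6 of 22 were lower on the mdDA side and 0 were higher, with a median log2 difference of -0.51. Of all probe sets 1.10% were lower and 1.52% higher there. *Gli3*, the transcriptional repressor of SHH signaling, had a log2 difference of -4.01 (adjusted p = 0.0224 from limma), *Ednrb*, an endothelin receptor gene of radial glia, -2.92, *Nr2e1*, an orphan nuclear receptor gene of neural stem cells, -2.40, and *Zfp36l1*, which encodes an mRNA decay factor, -1.30. The first 3 differed by more than any of the 10 genes did between the domains. The mean log2 levels of *Gli3* (4.00) and *Nr2e1* (3.93) in the mdDA domain lay below the array medians there.

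In sorted neurons 10 of the 22 were lower than in the mdDA domain and 2 were higher, with a median log2 difference of -0.44. The shares of all probe sets were 9.84% lower and 8.53% higher. *Rfx4*, which encodes an RFX transcription factor of the developing brain, had -2.04 (adjusted p = 0.00773 from limma), *Prom1*, the gene of the apical membrane protein CD133, -1.44, *Qk*, which encodes an RNA-binding protein, -1.44, and *Sparc*, a secreted matrix protein gene, -1.37. The other 2 probe sets of *Qk* were not called (log2 differences 0.40 and -0.02). The 2 higher ones were *Ddah1* (1.06) and *Gli3* (0.81), both named after their values were seen. The mean log2 level of *Gli3* was 4.16 in E14.5 neurons and 5.47 in E13.5 neurons, against 4.00 in the mdDA domain, and the sorted and mdDA arrays overlapped. All 8 lateral midbrain genes were also lower in the mdDA than the lateral domain. In sorted neurons 4 of these 8 were higher than in the mdDA domain, with 0 lower. Whether *Gli3* varies here with region or with radial glia was not tested. *Ednrb* (0.02) and *Nr2e1* (0.00), among the most different between the domains, had no called difference here. Against the lateral domain 15 of the 22 were lower in sorted neurons and 1 was higher, with a median of -1.19, and *Gli3* had -3.20. Of all 35556 probe sets 5141 were lower there and 4057 higher. None of the 22 was called between E14.5 and E13.5 neurons, and *Dbi*, a gene of an acyl-CoA-binding protein, had 0.63 (adjusted p = 0.822).

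Of 15 other SOX family genes 1 was lower in the mdDA than the lateral domain, where 1.10% of all probe sets were lower. It was *Sox14* (log2 difference -3.16), a SOXB2 gene known from GABAergic neurons. *Sox11* and *Sox4*, SOXC genes of newborn neurons, had -0.36 and 0.09 there (adjusted p = 0.424 and 0.882 from limma). In sorted neurons 9.84% of all probe sets were lower than in the mdDA domain and 8.53% higher. Of the 15 genes 4 were lower and 1 was higher. The lower ones were *Sox18* (-1.25) and *Sox7* (-0.63), both known from endothelial cells, *Sox21* (-0.62), also a SOXB2 gene, and *Sox6* (-0.44), a SOXD gene, and the higher one was *Sox4* (0.43). The median of these 15 genes was -0.11 between the domains and -0.25 between sorted neurons and the mdDA domain. *Sox2* and *Sox9* had larger differences between the domains than any SOX gene except *Sox14*.

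Cell division genes mostly went with *Sox2* and *Sox9*, while *Sox1*, *Sox3*, *Pax6* and *Msi1* differed little between sorted neurons and the mdDA domain. Of 21 cell division genes measured, 10 were lower in the mdDA than the lateral domain. In sorted neurons 13 were lower than in the mdDA domain and 20 lower than in the lateral domain. None of them was higher in any of these comparisons. The proliferation marker gene *Mki67* differed by -1.94 on the log2 scale between the domains, and the topoisomerase gene *Top2a* by -1.89. *Top2a* had -2.07 between sorted neurons and the mdDA domain, and the cyclin gene *Ccna2* had -1.82. A second, dimmer probe set of *Top2a* was called in neither comparison (-0.85 between the domains and -0.20 between sorted neurons and the mdDA domain). Neuronal genes went the other way between the domains, with 5 of 16 higher and 0 lower on the mdDA side, among them the neurofilament genes *Nefl* (1.89) and *Nefm* (1.81) and the microtubule-associated gene *Mapt* (1.74). In sorted neurons 7 of the 16 were higher than in the mdDA domain, among them the synaptic genes *Syp* (1.08) and *Snap25* (1.03). The 2 lower ones included *Nefm* (-1.42). Of all probe sets 1.10% were lower and 1.52% higher between the domains. Between sorted neurons and the mdDA domain the shares were 9.84% lower and 8.53% higher. Against the lateral domain 5141 of all 35556 probe sets were lower in sorted neurons and 4057 higher.

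**Figure D4:**
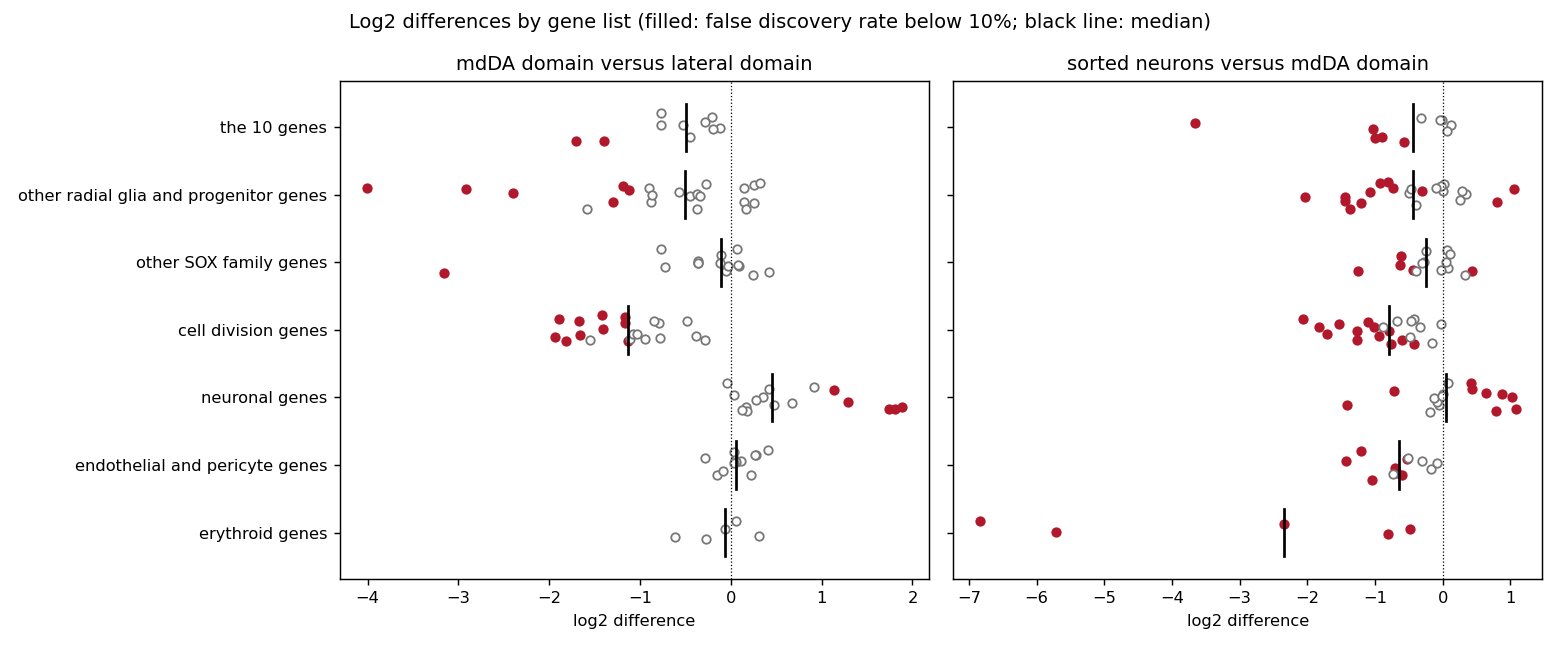
Log2 differences (x axis, with a different range in each panel) of single genes in 7 lists, filled where the false discovery rate was below 10%, with the list's median as a black line. Progenitor and cell division genes lay mostly below 0 in both panels (medians -0.49, -0.51 and -1.13 on the left), and erythroid genes reached -6.84 only on the right.

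Markers of other cell types also differed between sorted neurons and the mdDA domain, and *Nes* and *Vim* are also expressed by cells of blood vessels. Of all probe sets 9.84% were called lower in sorted neurons and 8.53% higher. Of 12 endothelial and pericyte genes 7 were lower in sorted neurons than in the mdDA domain, with 0 higher, among them the endothelial genes *Emcn* (log2 difference -1.43) and *Cdh5* (-1.05) and the pericyte gene *Rgs5* (-1.21). Their summed linear signal was 206 to 228 in E14.5 neurons, 180 to 183 in E13.5 neurons, 327 to 339 in the mdDA domain and 298 to 314 in the lateral domain, and 11 of the 12 lay below the array median in both sorted groups. All 5 measured erythroid genes were lower in sorted neurons, with summed signals of 94 to 104 against 3183 to 3211 in the mdDA domain, and the embryonic globin gene *Hbb-y* had a log2 difference of -6.84. Of 8 meningeal and mesenchymal genes 1 was lower, *Postn* (-3.38), which was also higher in the mdDA than in the lateral domain (3.07), and none of 9 microglial or 6 oligodendrocyte precursor genes was called. Between the 2 domains none of the 12 vessel, 5 erythroid, 9 microglial or 6 oligodendrocyte precursor genes was called. The part of these cells in the levels of *Nes*, *Vim* and the other genes was not tested.

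The genes whose 4 group means came closest to those of the 10 genes were named by distance. After centring each gene on its own mean, the median profile of the 10 genes was -0.14 in E14.5 neurons, -0.67 in E13.5 neurons, 0.03 in the mdDA domain, with 0.73 in the lateral domain on the log2 scale. The nearest genes by root mean square distance over the 4 group means were *Mcm6* (0.051), *Fst* (0.066), *Hus1* (0.074), *Pex13* (0.077) and *Grik2* (0.09). The nearest to *Sox2* alone were *Gpx8* (0.083), *Ube2c* (0.1), *Cenpa* (0.107), *Notch1* (0.111) and *Fbxo5* (0.117). *Notch1*, the receptor gene of the pathway that keeps radial glia from differentiating, had mean log2 levels of 5.35 in E14.5 neurons, 4.89 in E13.5 neurons, 6.32 in the mdDA domain, with 7.44 in the lateral domain. With 4 group means from 8 arrays, such distances are a description only.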

How the data were processed

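Log2 values per probe set of a mouse gene array (Mouse Gene 1.0 ST) were deposited by the authors for 8 arrays, made with RMA in Affymetrix Expression Console 1.2 per the labels, and were used as deposited without a filter. No detection calls were used, so the size of a difference that ends near or below the array median is uncertain, and the number of arrays limits the precision. Groups and replicate numbers came from the sample labels. Probe sets were named through the platform annotation (21789 of 35556 had 1 symbol, 1621 several, 12146 none), of which 21698 were matched to RefSeq with no symbol changed. The genome build of the files is not given in the sources used here.

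The mdDA and lateral domains were compared with limma 3.58.1 in R 4.3.3 as a paired test, which the methods name, with the replicate number taken as the block. Same-numbered arrays did not deviate together (r = -0.0147). Sorted neurons (the mean of both stages) were compared with each domain over 8 arrays, and the 2 sorted groups with each other over 4, without a block. P-values were adjusted by Benjamini-Hochberg across the 35556 probe sets, and a difference was called at a false discovery rate under 10%. Figures were drawn with matplotlib 3.10.9, and tables were made with Python 3.11.15, pandas 2.3.3 and numpy 2.4.6.

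The 10 genes and the other lists were chosen with earlier results of these data known. Of each list up to 4 called genes with the largest difference are named per comparison, or the 2 with the highest mean where fewer than 2 were called; *Sox14*, *Sox4* in sorted neurons, *Postn*, *Ddah1*, *Gli3* in sorted neurons and values of a gene shown for a second comparison were named after their values were seen. Some listed genes are not reported here. Promoter motifs were searched in the 250 bases before each start. Alternatives were another or no block, all 8 arrays, repeated quantile normalization, centring, a filter on dim probe sets, trend and robust priors, other thresholds, probe sets with 1 symbol, leaving out each array and, added after the data were seen, each sorted stage alone.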

Additional observations from a re-analysis of the deposited data

How the results depend on the processing

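Of the 10 genes, 2 were lower in the mdDA than the lateral domain with the paired test and 4 with no replicate block. With trend and robust priors 5 were lower, and at a false discovery rate of 5% 0 were. Over all 35556 probe sets the lower calls were 390, 605, 709 and 97 in these settings, in that order. Every fit with 1 array left out lost the calls of the 10 genes. It leaves 1 array in a domain, so that this array is assumed to vary like the other group. The replicate block changed no call of the 10 genes in the other comparisons. Fits with 1 array left out had no replicate block, so between the domains their reference is the fit without it. Genes lower in sorted neurons than in the mdDA domain numbered 3 to 5 (5 with all arrays) with 1 array left out, and those lower than in the lateral domain 5 to 7 (7 with all arrays). *Fabp7* in sorted neurons against the mdDA domain was also not called at a 1.5-fold threshold, without E13.5 replicate 1 (adjusted p = 0.101 from limma), without mdDA replicate 1 (0.12) or without mdDA replicate 2 (0.22). Calls over all probe sets also fell in the fits that left 1 array in a domain. The causes were not tested.

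Only uncalled log2 differences changed sign. Between sorted neurons and the mdDA domain *Pax6* had 0.20 after quantile normalization, 0.19 after centring, 0.05 with E14.5 neurons alone and -0.05 to 0.04 with 1 array left out, *Msi1* had 0.16 after centring and -0.17 to 0.09, and *Sox1* -0.10 to 0.35. Between sorted neurons and the lateral domain *Sox3* had 0.06 after centring, *Pax6* 0.01 after quantile normalization and 0.01 after centring, and *Sox1* -0.01 with E14.5 neurons alone and -0.06 to 0.07 with 1 array left out. *Sox1* ranged from -0.35 to 0.11 between the domains with 1 array left out, and between E14.5 and E13.5 neurons from -0.15 to 0.11, and *Msi1* there from -0.23 to 0.31. Every gene had 1 probe set, so a second probe set could not be tried.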
